A study of Mus musculus with 2 samples.

Results

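Pericytes, vascular cells and meningeal cells are 3 of the 17 main cell types that the authors named in a single-cell RNA sequencing data set of the mouse ventral hippocampus (vHPC). The members were taken by their deposited type name, and the 3 types were kept apart. Together they hold 268 of 8477 cells, with 147 pericytes, 51 vascular cells and 70 meningeal cells. Each type is a single cluster among the 33 clusters of the data set. Endothelial cells, of which there are 640, form a type of their own and serve here as the type to compare with.

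The WT library comes from a mouse with the ADCY2-V151 genotype and the L151 library from a mouse homozygous for ADCY2-L151, in which Val151 of adenylyl cyclase 2, an enzyme that makes cAMP, is replaced by Leu. Both mice were male, 11 to 12 weeks old and of mixed C57BL/6J x C57BL/6N background, and neither was treated. The substitution was introduced into the germline, so that every cell type carries it. From each genotype 1 sample was excluded by the authors, which leaves 1 library each, with 4055 cells for WT and 4422 for L151. A comparison of genotypes is therefore a comparison of 1 dissection with another, no test was made between them, and a genotype cannot be told apart from its library. All intervals are exact 95% binomial intervals, which cover counting error only. Where no cell was found, the upper limit given is that of 3 cells of the total.

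Pericytes are contractile and supporting cells that wrap the capillary endothelium, share its basement membrane and help to maintain the blood-brain barrier. Larger vessels carry smooth muscle, which sets vessel diameter, and the meninges that cover the brain and follow its vessels hold fibroblasts that lay down matrix. Commonly used marker genes are Rgs5, a regulator of G-protein signaling, and Kcnj8, the pore of an ATP-sensitive potassium channel, for pericytes, Acta2, smooth muscle actin, for smooth muscle, and Dcn, the matrix proteoglycan decorin, for fibroblasts. Counts of these or other genes were not analysed here, so the names could not be checked against markers and are used as deposited. The deposited label of the vascular cells does not say which vessel cells they are. What was measured in every cell is its number of unique molecular identifiers (UMIs, 1 for each captured RNA molecule), the number of genes these came from, the percentage of UMIs from mitochondrial genes and a doublet score. These values come from the counts that also formed the clusters, so differences between types are descriptions.

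The 3 types differed in depth, in the same order in both libraries. In the WT library, pericytes ranged from 942 to 6471 UMIs per cell with a median of 3486, vascular cells from 3899 to 10911 with a median of 7279, and meningeal cells from 422 to 14480 with a median of 949. In the L151 library, the range was 1214 to 6331 with a median of 3197 for pericytes, 3624 to 10235 with a median of 6821 for vascular cells, and 448 to 9058 with a median of 929 for meningeal cells. More RNA molecules were thus captured per vascular cell than per pericyte, with ratios of the medians of 2.09 in WT and 2.13 in L151, and every vascular cell lay above the pericyte median of its library. Meningeal cells had the lowest median of all 17 types in WT, and in L151 only OPCs, the oligodendrocyte progenitors, were lower, with 873 UMIs. Some types pool several clusters. By cluster, over both libraries, the meningeal median was 939 UMIs. A cluster of CA1 neurons with 563, an endothelial cluster with 708 and the OPCs with 873.5 lay below it.

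**Figure D1:**
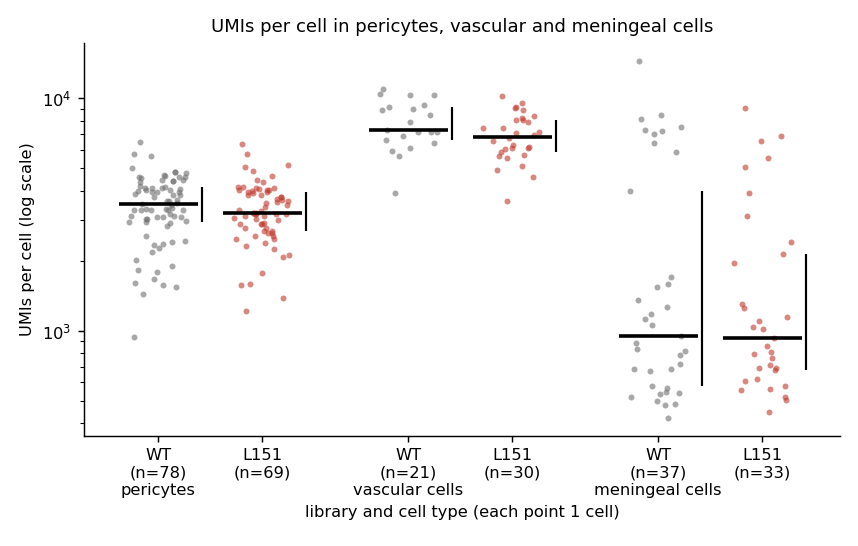
UMIs per cell on a log scale for each cell of the 3 types with WT cells in grey and L151 cells in red, the median as a thick bar and the quartiles as a thin line. Vascular cells sit in a narrow band around medians of 7279 and 6821, pericytes around 3486 and 3197, and meningeal cells form a shallow majority with a few deep cells above it.

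Pericytes were even in depth. Their upper quartile was 1.42 times the lower one in WT and 1.47 times in L151, against 3.28 and 3.53 times for endothelial cells, the type that they cover in the tissue. Endothelial cells, however, pool a deep cluster of 498 cells and a shallow one of 142, with median UMIs of 5066 and 708 over both libraries. Evenness was not particular to pericytes, since the quartiles of oligodendrocytes, for example, were 1.45 times apart in WT and 1.39 times in L151. Cells with fewer than 1000 genes made up 5.13% of WT pericytes (4 of 78, 1.41 to 12.6%) and 4.35% of L151 pericytes (3 of 69, 0.906 to 12.2%). The share was 19.8% (15.7 to 24.4%) and 21.3% (16.8 to 26.4%) in endothelial cells, and 19.2% and 25% over all cells of the libraries. No pericyte had fewer than 500 genes, where 3 of 147 cells would be a share of 2.04%. Over all cells this share was 4.04% in WT and 8.30% in L151. The deepest pericytes were few as well, with 1 cell of at least 6000 UMIs in each library, against 38.9% and 35.9% of all cells.

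Vascular cells were at least as even, with quartiles 1.38 times apart in WT and 1.37 times in L151, and no shallow cell was found among them. All 51 cells had at least 1778 genes, and none of 51 cells under 1000 genes leaves an upper limit of 5.88% by the 3-cell rule. The median gene number was 2719 in WT and 2608 in L151, against 1862 and 1777 in pericytes and 631 and 579 in meningeal cells. Compared with pericytes this is 1.46 and 1.47 times as many genes from 2.09 and 2.13 times as many UMIs.

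Because a deeper cell shows more genes, each cell was also set against the other cells of its own library whose UMI count lay within 10% of its own. At like depth pericytes held more genes than the cells of the other types. The ratio of a pericyte's gene number to the median of these cells had a median of 1.12 in WT (quartiles 1.08 and 1.14) and 1.10 in L151 (1.07 and 1.11). All 78 WT pericytes and 67 of 69 L151 pericytes lay above 1. Endothelial cells showed a like excess, with medians of 1.08 in WT and 1.08 in L151. Set against endothelial cells alone, the pericyte ratio was 1.03 in both libraries, with 65 of 78 and 51 of 69 cells above 1.

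Vascular cells did not share this excess. Against all other types at like depth their median ratio was 0.95 in WT (quartiles 0.922 and 0.985) and 0.986 in L151 (0.959 and 1.01), with 3 of 21 and 13 of 30 cells above 1. Against endothelial cells at like depth it was 0.90 and 0.920, and 0 of 21 WT cells and 2 of 30 L151 cells exceeded the endothelial median. Their UMIs were thus spread over fewer genes than those of an endothelial cell of the same depth. Meningeal cells lay near the cells of other types, with 0.991 in WT and 0.987 in L151, and 18 of 37 and 14 of 33 cells above 1. Against endothelial cells alone their median ratio was 0.977 and 0.961, and 9 of 35 and 8 of 32 matched cells lay above 1.

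**Figure D2:**
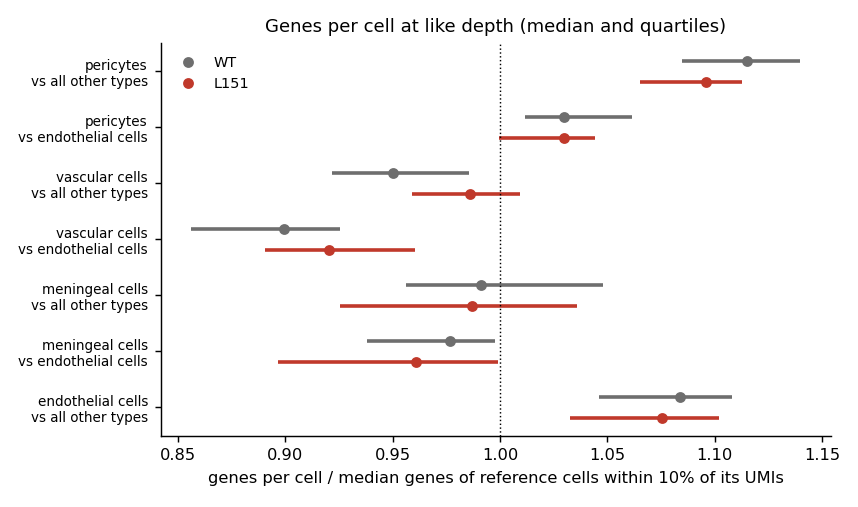
Genes per cell divided by the median gene number of reference cells of the same library within 10% of the cell's UMIs, with the median over cells as a point and the quartiles as a line, in WT (grey) and L151 (red). Pericytes and endothelial cells lie above 1 against all other types, and vascular cells lie lowest, at 0.90 in WT and 0.920 in L151 against endothelial cells.

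The types also differed in mitochondrial content, which reflects how much of a cell's captured RNA is transcribed from the mitochondrial genome. Pericytes were low, from 0.653 to 10.3% with a median of 2.84% in WT and from 1.55 to 9.93% with a median of 2.95% in L151. Vascular cells were high, from 4.94 to 14.3% with a median of 7.28% in WT and from 2.74 to 12.4% with a median of 6.79% in L151. The vascular median was 2.57 times that of pericytes in WT and 2.30 times in L151. Endothelial cells stood with the pericytes, at 3.41% and 3.33%, and the medians over all cells were 5.83% and 5.85%.

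Few WT pericytes reached the range of vascular cells in this measure, and more did in L151. In WT, 73 of 78 pericytes lay below the lowest of the 21 vascular cells, as did 289 of 344 endothelial cells. From the other side, 2 of these vascular cells lay above every pericyte. In L151, 28 of 69 pericytes and 91 of 296 endothelial cells lay below the lowest vascular cell. There 1 of 30 vascular cells lay above every pericyte. The lowest L151 vascular cell had 2.74% mitochondrial UMIs, and it was also the only vascular cell of either library with a doublet score of 0. Without this cell, an omission chosen with its values in view, the lowest vascular cell had 4.0%. Then 54 of 69 L151 pericytes and 194 of 296 L151 endothelial cells lay below that value.

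**Figure D3:**
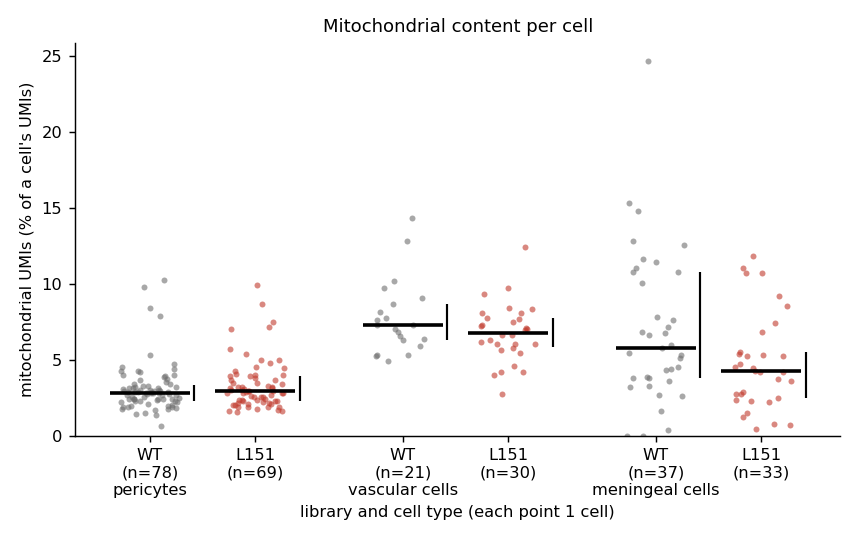
Percentage of mitochondrial UMIs in each cell of the 3 types with WT cells in grey and L151 cells in red, the median as a thick bar and the quartiles as a thin line. Pericytes gather near 3% and vascular cells near 7% in both libraries, whereas meningeal cells spread from 0 to 24.6% in WT and from 0.422 to 11.8% in L151.

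The same contrast was seen at like depth. Among cells of other types with a UMI count within 10%, a median of 22.6% in WT and 24.4% in L151 had a lower mitochondrial percentage than the pericyte, whereas 75.3% and 72.5% had a lower one than the vascular cell. Of the pericytes, 77 of 78 and 67 of 69 lay below the median of the cells they were compared with. Of the vascular cells, 21 of 21 and 24 of 30 lay at or above it. Endothelial cells shared the low content of pericytes, with 304 of 344 in WT and 264 of 296 in L151 below the median of other types. Set against endothelial cells alone, 54 of 78 WT pericytes and 37 of 69 L151 pericytes lay below the endothelial median. In sums over all cells of a type, mitochondrial UMIs were 8436 of 270722 in WT pericytes, a share of 3.12% (3.05 to 3.18%), and 12466 of 164578 in WT vascular cells, a share of 7.57% (7.45 to 7.70%). In L151 these shares were 3.26% (3.19 to 3.33%) and 7.03% (6.93 to 7.15%).

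Meningeal cells had no single depth. Cells under 2000 UMIs made up 73.0% of them in WT (27 of 37, 55.9 to 86.2%) and 72.7% in L151 (24 of 33, 54.5 to 86.7%). Over all cells of the libraries this share was 21.2% and 25.6%. The meningeal cells under 2000 UMIs had medians of 721 and 735.5 UMIs and 492 and 480 genes. The median of the remaining 10 WT cells was 7260 UMIs per cell, a depth like that of vascular cells, with 2845.5 genes. For the remaining 9 cells of L151 it was 5076 UMIs, with 2272 genes. In WT no meningeal cell fell between 1696 and 3971 UMIs. In L151 this range held cells at 1950, 2138, 2398, 3107 and 3896 UMIs. The few deep cells carried most of the type's captured RNA, 76.8% of its UMIs in WT and 68.9% in L151. Over the whole type, cells with fewer than 500 genes made up 37.8% in WT (22.5 to 55.2%) and 42.4% in L151 (25.5 to 60.8%). The share was 10.2% and 11.5% in endothelial cells, and 4.04% and 8.30% over all cells.

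Mitochondrial content of meningeal cells was spread more widely than in pericytes and vascular cells. It ran from 0 to 24.6% in WT, with quartiles at 3.81 and 10.8%, and from 0.422 to 11.8% in L151, with quartiles at 2.51 and 5.51%. Within each library the cells under 2000 UMIs had the higher median, 6.80% against 4.07% in the deeper cells of WT and 4.60% against 2.88% in L151. Over all meningeal cells of a library, however, UMIs and mitochondrial percentage had Spearman correlations near 0, 0.060 in WT and 0.022 in L151.

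The doublet score, which rates how far the profile of a droplet resembles that of a pair of cells caught together, separated the 3 types as well. How the deposited score is scaled is not stated in the sources at hand. Over all cells it ran from 0 to 2.98, and 24.2% of WT cells and 28.6% of L151 cells had a score of exactly 0. The authors removed putative doublets before deposit, so these are the scores of the cells that were kept.

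Vascular cells had high scores with little spread. The median was 2.07 in WT (lowest 1.71, highest 2.62) and 2.00 in L151 (lowest 0, highest 2.63). Of the 16 other types only ependymal cells, which line the ventricles and carry cilia, had a higher median in WT, with 2.08, and none had a higher one in L151. Some of these types pool several clusters. Among the 33 clusters the vascular median over both libraries, 2.02, ranked 5, and the highest was 2.25 in a cluster of astrocytes. Scores of at least 2 were found in 12 of 21 WT cells (57.1%, 34.0 to 78.2%) and in 15 of 30 L151 cells (50%, 31.3 to 68.7%), against 12.6% and 11.6% of all cells. At like depth a median of 85.3% of the cells of other types in WT and 85.0% in L151 scored lower than the vascular cell. Whether vascular cells include droplets with more than 1 cell was not tested.

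Pericytes scored lower, with medians of 1.14 in WT and 1.05 in L151. A score of 0 was found in 16 of 78 WT pericytes (20.5%, 12.2 to 31.2%) and in 11 of 69 L151 pericytes (15.9%, 8.24 to 26.7%). These cells were shallow, with medians of 1864.5 and 2070 UMIs, against 3700.5 and 3434 in the pericytes with a score above 0. Scores of at least 2 occurred in 9 WT and 4 L151 pericytes, which is 11.5% (5.41 to 20.8%) and 5.80% (1.60 to 14.2%).

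Meningeal cells took only the extremes of the score. It was 0 in 29 of 37 WT cells (78.4%, 61.8 to 90.2%) and in 27 of 33 L151 cells (81.8%, 64.5 to 93.0%), and at least 2.03 in each of the other 14 cells. No meningeal cell scored between these values, where 3 of 70 cells would be a share of 4.29%, whereas 107 of 147 pericytes did. Over all cells, 63.2% in WT and 59.9% in L151 scored above 0 and under 2. Macrophages resembled meningeal cells, with a score of 0 in 21 of 26 WT and 22 of 22 L151 cells, and 1 of 48 above 0 and under 2. The 14 meningeal cells with a score above 0 were the deepest of their library. In WT they began at 6422 UMIs and had a median of 7384.5, while the cells with a score of 0 ended at 5852. In L151 they began at 3896 and had a median of 6010, while the cells with a score of 0 ended at 3107. Within each library a UMI count thus separated scores of 0 from the others, although this count was lower in L151. It was not the bound of 2000 UMIs used above. Of the meningeal cells of at least 2000 UMIs, 8 of 10 in WT and 6 of 9 in L151 had a score above 0.

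**Figure D4:**
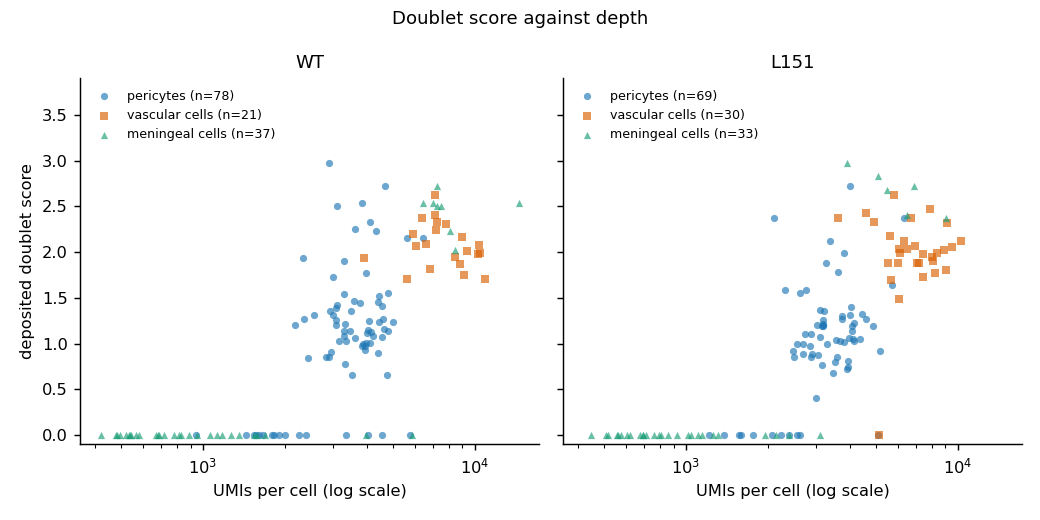
Deposited doublet score of each cell against its UMIs on a log scale, for pericytes (blue circles), vascular cells (orange squares) and meningeal cells (green triangles) of the WT (left) and L151 (right) libraries. Meningeal cells lie at 0 or above 2, vascular cells mostly between 1.5 and 2.6, and most pericytes around 1.

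Turning to the genotypes, pericytes made up 1.92% of WT cells (78 cells, 1.52 to 2.39%) and 1.56% of L151 cells (69 cells, 1.22 to 1.97%), vascular cells 0.518% (21 cells, 0.321 to 0.791%) and 0.678% (30 cells, 0.458 to 0.967%), and meningeal cells 0.912% (37 cells, 0.643 to 1.26%) and 0.746% (33 cells, 0.514 to 1.05%). The shares overlapped in their intervals for all 3 types. Set against the endothelial cells of the same library, of which there were 344 in WT and 296 in L151, pericytes numbered 22.7 per 100 endothelial cells in WT (17.5 to 29.1) and 23.3 in L151 (17.7 to 30.4). Meningeal cells numbered 10.8 (7.45 to 15.1) and 11.1 (7.53 to 16), and vascular cells 6.10 (3.73 to 9.48) and 10.1 (6.72 to 14.8).

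In value, the pericyte and meningeal shares among all cells were lower in L151. So was the endothelial share, for which the L151/WT ratio was 0.789 (0.673 to 0.924). Among non-neuronal cells the endothelial ratio was 0.857 (0.731 to 1.004), and among the 3 types pooled with endothelial cells it was 0.965 (0.823 to 1.13). Endothelial cells made up 12.9% of non-neuronal cells in WT and 11.0% in L151, and 71.7% and 69.2% of the pool. For such large parts these intervals are too wide, so whether they include 1 was not read. Making up most of the pool also pulls the endothelial ratio in it towards 1. The L151/WT ratio of shares was 0.811 (0.578 to 1.14) for pericytes among all cells and 0.992 (0.707 to 1.39) among the 3 types pooled with endothelial cells, and for meningeal cells it was 0.818 (0.496 to 1.34) and 1.0 (0.606 to 1.64). Vascular cells had a higher share in L151, with 1.31 (0.725 to 2.41) and 1.60 (0.887 to 2.94). For each of the 3 types both intervals include 1, so a difference was not shown with these cell numbers. For vascular cells the intervals still allow a share in L151 of 2.41 times that in WT among all cells and 2.94 times among the 3 types with endothelial cells.

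**Figure D5:**
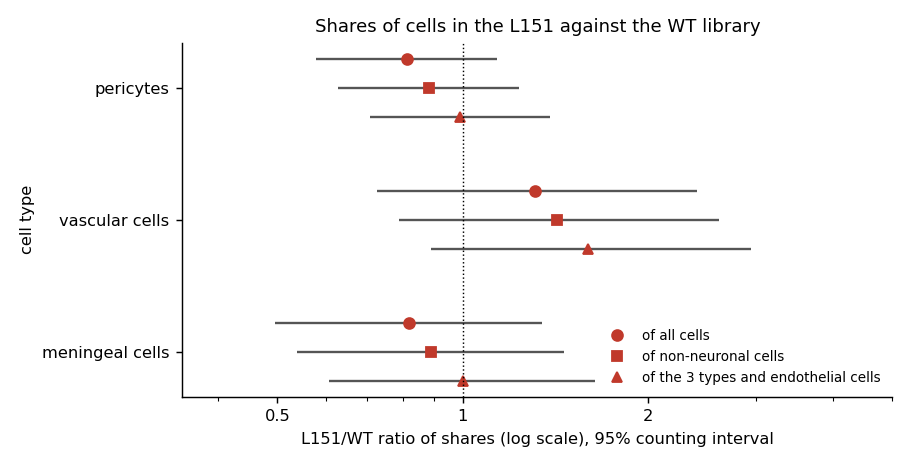
L151/WT ratio of the share of cells for each type on a log scale, with its 95% counting interval, taken among all cells (circles), non-neuronal cells (squares) and the 3 types with endothelial cells (triangles). Pericytes and meningeal cells move from 0.811 and 0.818 to 0.992 and 1.0, vascular cells from 1.31 to 1.60, and each interval includes 1.

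Pericytes supplied 1.23% of the UMIs of the WT library and 1.03% of those of the L151 library, vascular cells 0.746% and 0.935%, and meningeal cells 0.450% and 0.291%. Among meningeal cells, 8 of 37 WT cells (21.6%, 9.83 to 38.2%) and 3 of 33 L151 cells (9.09%, 1.92 to 24.3%) had at least 6000 UMIs, shares with overlapping intervals. Over all cells of the libraries this share was 38.9% and 35.9%.

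Within each type median depth was compared between the libraries. The L151/WT ratio of median UMIs was 0.917 in pericytes, 0.937 in vascular cells and 0.979 in meningeal cells, and that of median genes was 0.954, 0.959 and 0.918. Among meningeal cells with at least 500 genes, 23 in WT and 19 in L151, the UMI ratio was on the other side of 1, at 1.23. In endothelial cells the ratios of UMIs and genes were 1.03 and 1.0. The differences were smaller than the spread between cells. The quartiles of UMIs in pericytes were 2918.5 and 4146.5 in WT and 2694 and 3951 in L151, and in vascular cells 6604 and 9116 in WT and 5877.5 and 8064.25 in L151. From WT to L151 the median doublet score dropped by 0.0901 in pericytes, and it dropped by 0.0670 in vascular cells. In meningeal cells it was 0 in both libraries.

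Median mitochondrial content was 0.113 percentage points higher in L151 in pericytes. In vascular cells it dropped by 0.495 points in L151, and it dropped by 2.84 points in the 4 WT and 12 L151 vascular cells of 3899 to 6331 UMIs, the depth that all 3 types share. For meningeal cells the median was 5.75% in the WT library and 4.24% in the L151 library. Among the 26 WT and 29 L151 meningeal cells of at most 10% it dropped by 0.149 points, and under the same limit it dropped by 0.298 points in vascular cells. Over 10% mitochondrial UMIs were found in 11 of 37 WT meningeal cells (29.7%, 15.9 to 47.0%) and in 4 of 33 L151 meningeal cells (12.1%, 3.40 to 28.2%), intervals that overlap. Over all cells of the libraries this share was 29.8% and 29.7%. Among meningeal cells with a score of 0, a choice made after the values were seen, the medians were 6.80% in the 29 WT cells and 4.50% in the 27 L151 cells.

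Droplet barcodes were nearly all distinct between the libraries, with 3 of 8474 barcodes found in both. Among the members 1 of these barcodes recurred, in a WT vascular cell of 10437 UMIs and an L151 pericyte of 3186 UMIs.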

How the data were processed

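The authors made the UMI counts and gene counts per cell, for which the submitters' processing notes name Cell Ranger 3.0.2 and mm10, and deposited them without normalization. The deposited percent of mitochondrial UMIs, multiplied by the UMI count, gives a whole number, within 1e-06, in 8477 cells. The deposited doublet score has no stated scale. Before deposit the authors dropped putative doublets, blood cells, and droplets outside 320 to 5000 genes or above 25% mitochondrial content, and clustered and named the rest with Seurat 3.1.3. Replicates were not available, with 22049587 UMIs in the WT and 22276085 in the L151 library.

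Quantiles, shares with exact Clopper-Pearson intervals, Spearman correlations and values at like depth were computed with scipy 1.17.1, numpy 2.4.6 and pandas 2.3.3 under Python 3.11.15. Plots were made with matplotlib 3.10.9. At least 5 reference cells were required at like depth. The interval of a ratio of shares follows from the exact interval of the L151 part of the cells. It takes the totals as fixed and is too wide for a type that makes up much of them. Interval calculations were tested on simulated data with shares like those of the 3 types among all cells, not with larger ones. The depth calculation was tested on simulated data as well. No cell was filtered, no doublet caller was run and no test was made. Results were also computed with other minimums of genes and UMIs, a maximum of mitochondrial content, other denominators, means, a shared UMI window and leaving out high doublet scores. The members and measures were chosen with earlier results of these data known. No gene was named by its values. Columns of values left without a sample numbered 0.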

Additional observations from a re-analysis of the deposited data

How the results depend on the processing

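Of 142 alternatives over 30 results, 136 kept the order of the types or stayed within a range set for the value reported. For shares and pericytes per 100 endothelial cells this range was a counting interval, and for genes at like depth the quartiles over cells. For L151 against WT medians it set the lower limit of the median in 1 library against the upper limit in the other. Such a range is wide. For the meningeal UMI ratio of 0.979 it ran from 0.448 to 1.91, so that 1.23 with at least 500 genes still lay within it. The 6 other alternatives mostly come from the window of 3899 to 6331 UMIs that all 3 types share. This window holds 2 meningeal cells per library and 4 WT and 12 L151 vascular cells. There the L151 minus WT difference of median mitochondrial percentage was -2.84 points in vascular cells and -5.26 in meningeal cells, and that of the meningeal doublet score 2.75. In L151, 2 of the 3 pairs of types kept their order by genes and 1 kept it by doublet score. With means in place of medians, the meningeal score difference was -0.0451. With at most 10% mitochondrial content, the meningeal share ratio was 1.02 in place of 0.818. The other windows at like depth, the split of meningeal cells by score and the filters on pericytes per 100 endothelial cells were chosen after seeing the data. No paired analysis was possible because each genotype has 1 library. The spread between mice is unknown, and with 21 to 78 cells per type and library, only large differences in shares could be shown.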
